A study of Bos taurus with 15 samples.

Results

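The genes described here are 8 members of the epidermal growth factor (EGF) family, the ligands HBEGF, AREG, EREG, TGFA and BTC and the receptors EGFR, ERBB2 and ERBB3. They were chosen by gene name and make up 8 of the 19994 genes in the deposited table. The study sequenced the messenger RNA of cultured endometrial epithelium, the lining of the uterus, from Bos taurus beef cows. There were 3 groups of 5 libraries. In the contact group, in vitro produced day 5.5 morulae, in groups of 15 ± 1, lay directly on the epithelial cells. Wells of the no contact group held morulae of the same age and number in a transwell insert above the cells. In the control group no embryo was present, and wells of every group received an insert. All cells shared 1 source, the pooled scrapings of 4 uteri, which had been cryopreserved and were used at passage 3 and 90% confluence. They were kept for 48 h in synthetic oviductal fluid with fetal bovine serum. Because all groups came from this pool, p-values here reflect how cultures of it varied, not how cows varied.

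EGF family ligands are made as membrane-anchored precursors. They can signal to a neighbouring cell by touch, or be cut free by metalloproteases such as ADAM17. Ligand binding pairs the receptors, of which ERBB2 has no known ligand of its own and ERBB3 has little kinase activity, and the pair starts the RAS-MAPK and PI3K-AKT relays. In mice, HBEGF is made by the luminal epithelium at the site of the attaching blastocyst.

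In the contact group, libraries 97 and 108 held 4195091 and 6104652 reads assigned to genes and the other 3 held 16670801 to 19268029. Assigned reads ranged from 12938091 to 19792557 in the no contact group and from 15507719 to 18618467 in the control group. Numbers in the library titles form the runs 24 to 30, 83 to 90 and BEEC.103 to 110, with 97 by itself, whose meaning the labels do not give (BEEC is the prefix of all titles). The epithelial label was checked against 13 markers. KRT8, a keratin of simple epithelia, reached normalized counts of 29337 to 40317 over all libraries and the junction protein E-cadherin (CDH1) 952 to 1698, while EPCAM, another defining epithelial gene, lay between 0 and 3.36. The epithelial markers CLDN4, CLDN7 and GRHL2 were also near 0, at 0 to 4.47, 0 to 1.81 and 0 to 1.12. The keratins KRT18 and KRT19 of the same list were abundant, at 5239 to 10558 and 10129 to 17682. Of the 13 epithelial markers 9 passed the filter and limma called none different in any comparison. In contact against control, no contact against control and contact against no contact, 13.0%, 1.59% and 5.56% of all genes tested were called. The 13 epithelial markers summed to 47726 to 66177.5 in contact, 50378 to 70842 in no contact and 51051 to 68076.5 in control. The stromal genes COL1A1 and VIM were abundant, at 82259 to 116621 and 13556 to 20834. The stromal markers THY1 and TCF21 were near 0, at 0 to 8.95 and 0 to 0.903. Of 11 stromal markers tested 1 was called, higher in contact than in control, where 7.17% of all genes tested were called higher. The 13 stromal markers summed to 344469 to 410503 in contact, 318677 to 385486 in no contact and 364012 to 388245 in control. The summed stromal markers thus exceeded the summed epithelial markers in every library. Besides COL1A1, the stromal sum held the collagens COL1A2, at 85587.5 to 119561, and COL3A1, at 73543.5 to 122032. Because the lists hold different genes, their sums do not give the shares of cell types. The cells are called epithelial here by their label. In bulk RNA such as this, fewer cells of a type and less RNA per cell cannot be told apart.

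Of the 8 members, HBEGF, EGFR, ERBB2 and ERBB3 passed the filter on low values, which asked for 10 or more normalized counts in 5 or more libraries. A normalized count is the authors' deposited value, reads divided by 1 size factor per library. BTC and TGFA were under the filter, with 58 and 16 reads over all 15 libraries. AREG and EREG were listed at 0 in every library. Over the 237181786 assigned reads, the limit that a count of 0 allows, 3 reads, corresponds to 0.0126 RPM, the usual scaling of reads to the library total. That limit was 0.0464 RPM over the contact libraries, 0.0347 RPM over the no contact libraries and 0.0349 RPM over the controls. These limits and the intervals on read counts below cover counting error only.

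None of the 4 members that passed the filter was called different in any comparison by limma at an adjusted p below 0.05. Between contact and control, limma called 0 of 4, where 13.0% of all 12559 genes tested were called. Between no contact and control it called 0 of 4, where 1.59% of all genes tested were called. Between contact and no contact it called 0 of 4, where 5.56% of all genes tested were called. An unadjusted limma p below 0.05 was reached by 1, 1 and 0 members in those comparisons, HBEGF both times, where 26.3%, 8.39% and 19.7% of all genes tested reached it. edgeR called 0 of 4 in each comparison, with 12.9%, 1.62% and 5.54% of all genes called in the same order, and DESeq2 called 0 of 4 in each, with 14.4%, 1.96% and 7.21% called. The members' median log2 fold change was 0.02 for contact against control, where the median of all genes tested was -0.011. It was -0.06 for no contact against control, with -0.011 for all genes, and 0.07 for contact against no contact, with 0.0079 for all genes.

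HBEGF, heparin-binding EGF-like growth factor, binds EGFR and ERBB4. In order of library number, its normalized counts were 74.7, 102, 90.7, 65.9 and 77.8 in contact, 74.7, 75.1, 85.0, 64.7 and 88.9 in no contact, and 109, 108, 114, 81.4 and 90.3 in control. Control libraries 24, 83 and 84 lay above all 10 libraries with embryos, whereas control libraries BEEC.103 and BEEC.104 lay among them. HBEGF averaged 82.2 ± 14.2 in contact libraries, 77.7 ± 9.52 in no contact libraries and 100.4 ± 13.8 in control libraries (SD, n = 5 each). The log2 fold change on the log2(value + 1) scale, used for all fold changes from limma here, was -0.29 ± 0.137 (SE; 95% interval -0.58 to -0.0046) for contact against control. The limma adjusted p of that difference was 0.183, and 0.0875 to 0.357 over 27 alternative settings. For no contact against control the log2 fold change was -0.36 (95% interval -0.65 to -0.078), with a limma adjusted p of 0.405 and 0.141 to 0.699 over the alternatives. Contact and no contact differed by 0.07 (95% interval -0.21 to 0.36), with a limma adjusted p of 0.803. Neither difference from control thus passed the test.

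Within the number runs, HBEGF was below control in each run that held both groups. The contact minus control differences of log2 values were -0.54 in run 24 to 30, -0.11 in run 83 to 90 and -0.26 in run BEEC.103 to 110. The no contact minus control differences were -0.54, -0.46 and -0.18 in the same order of runs. In run 24 to 30 each group has 1 library, and in run 83 to 90 contact has 1. In the authors' deposited table, which puts control on top, HBEGF had a log2 fold change of 0.239 for control against contact with an FDR of 0.196, and of 0.288 for control against no contact with an FDR of 0.383. Both therefore place HBEGF higher in control, and neither passed 0.05.

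BTC, betacellulin, binds EGFR and ERBB4, and it was higher in contact than in either other group at very low read numbers. The reads in order of library number were 11, 11, 1, 7 and 4 in contact, 3, 3, 1, 3 and 2 in no contact, and 5, 3, 1, 2 and 1 in control. The normalized counts were 8.84, 9.51, 3.36, 5.13 and 9.43 in contact, 2.44, 2.56, 0.746, 3.35 and 1.66 in no contact, and 4.07, 2.91, 0.855, 1.57 and 0.903 in control. The contact values lay above all no contact values, the closest pair being 3.36 in contact library 97, which rests on 1 read, and 3.35 in no contact library 109. They overlapped with control through control library 24 alone, which lay above contact library 97.

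The means of BTC were 7.25 ± 2.83 in contact libraries, 2.15 ± 0.987 in no contact libraries and 2.06 ± 1.40 in control libraries (SD, n = 5 each). Summed over libraries, BTC had 0.525 RPM in contact (exact Poisson 95% interval 0.364 to 0.734), 0.139 in no contact (0.0717 to 0.242) and 0.140 in control (0.0721 to 0.244). An exact two-sided permutation test over libraries gave p = 0.0159 for contact against control and p = 0.00794 for contact against no contact, the smallest value that 5 against 5 allows. Adjusted over the 6 tests of BTC and TGFA, both p were 0.0476 by this exact test. For no contact against control the exact permutation p was 0.897. Leaving out any of contact 28, 87, 107 or 108 brought the adjusted exact permutation p to 0.0952 in both comparisons with contact, and leaving out control 83, 84, BEEC.103 or BEEC.104 brought it to 0.0952 for contact against control. With 4 against 5 libraries the smallest unadjusted p is 0.0159.

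Fitted with limma on all 16483 genes with a read and no filter, BTC had a log2 fold change of 1.47 for contact against control with an adjusted p of 0.0115. It had 1.37 for contact against no contact with an adjusted limma p of 0.0340. Of all genes in that fit, 9.21% and 3.58% were called in these comparisons. The call against control was kept when any 1 library was left out. The call against no contact was lost without contact 28, 87 or 108 or without no contact 30, 89, 90 or 110, with limma adjusted p of 0.0568 to 0.0882. Within the runs 24 to 30, 83 to 90 and BEEC.103 to 110, the contact minus control differences of log2 values were 0.96, 1.97 and 1.85, and the contact minus no contact differences were 1.52, 2.08 and 1.23. The authors' deposited table gives BTC a log2 fold change of -0.366 for control against contact with an FDR of 0.0118, and of 0.364 for contact against no contact with a p of 0.00112 and no FDR. DESeq2 on the recovered reads likewise gave no adjusted p for BTC in contact against no contact. Over the alternatives the BTC log2 fold change for contact against control ran from 0.78, with a pseudocount of 5, to 1.87, with DESeq2. The deposited -0.366 for control against contact is smaller in size than any of these. The sources used here do not say how the authors estimated it, so the sizes may not be on 1 scale.

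Because morulae touched the cells in the contact group, embryo markers were measured beside BTC. Of 18 embryo markers in the table, 6 were listed at 0 in all libraries, and the pluripotency gene NANOG was among them. POU5F1, another pluripotency gene, had 2 reads in all. The summed normalized count of the 18 was 1597 to 1865 in contact, 1951 to 2554 in no contact and 1964 to 2282 in control. Most of it was TFAP2A, a transcription factor that the cells without embryos also expressed, at 1432 to 1653 in contact, 1776 to 2403 in no contact and 1766 to 2107 in control. TFAP2A was the only embryo marker that limma called, lower in contact, with a log2 fold change of -0.29 against control and -0.35 against no contact and limma adjusted p of 0.0193 and 0.0106. It was 1 of 4 embryo markers tested, where 5.78% and 1.82% of all genes tested were called lower in these comparisons. Without it the summed count of the other 17 was 121 to 212 in contact, 119 to 206 in no contact and 158 to 205 in control, and the groups overlapped. The trophoblast interferon gene IFNT read 32.1 to 89.3 in contact, 27.3 to 70.3 in no contact and 18.8 to 71.4 in control, also with overlap. The part of embryo RNA in the BTC values was not tested.

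TGFA, transforming growth factor alpha, another ligand of EGFR, had 1, 4, 1, 3 and 0 reads in contact, 0, 1, 0, 1 and 0 in no contact, and 2, 0, 0, 3 and 0 in control. All groups overlapped. The exact two-sided permutation p was 0.206 for contact against control, 0.563 for no contact against control and 0.119 for contact against no contact. In the limma fit without a filter, TGFA had log2 fold changes of 0.73, -0.23 and 0.97 in the same order. The adjusted limma p-values were 0.371, 0.929 and 0.286, the last with an unadjusted limma p of 0.0461. No difference in TGFA thus passed, and what size of difference so few reads could show was not tested.

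AREG (amphiregulin) and EREG (epiregulin), the members at 0, are neighbours in the RefSeq annotation of ARS-UCD2.0. They lie in a row with EPGN (epigen) and BTC, in the order EPGN, EREG, AREG, BTC, with 0 other protein-coding genes between consecutive ones. EPGN, no member of the 8, had 3 reads in all. BTC was thus the only gene of this row with a read in every library.

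**Figure D1:**
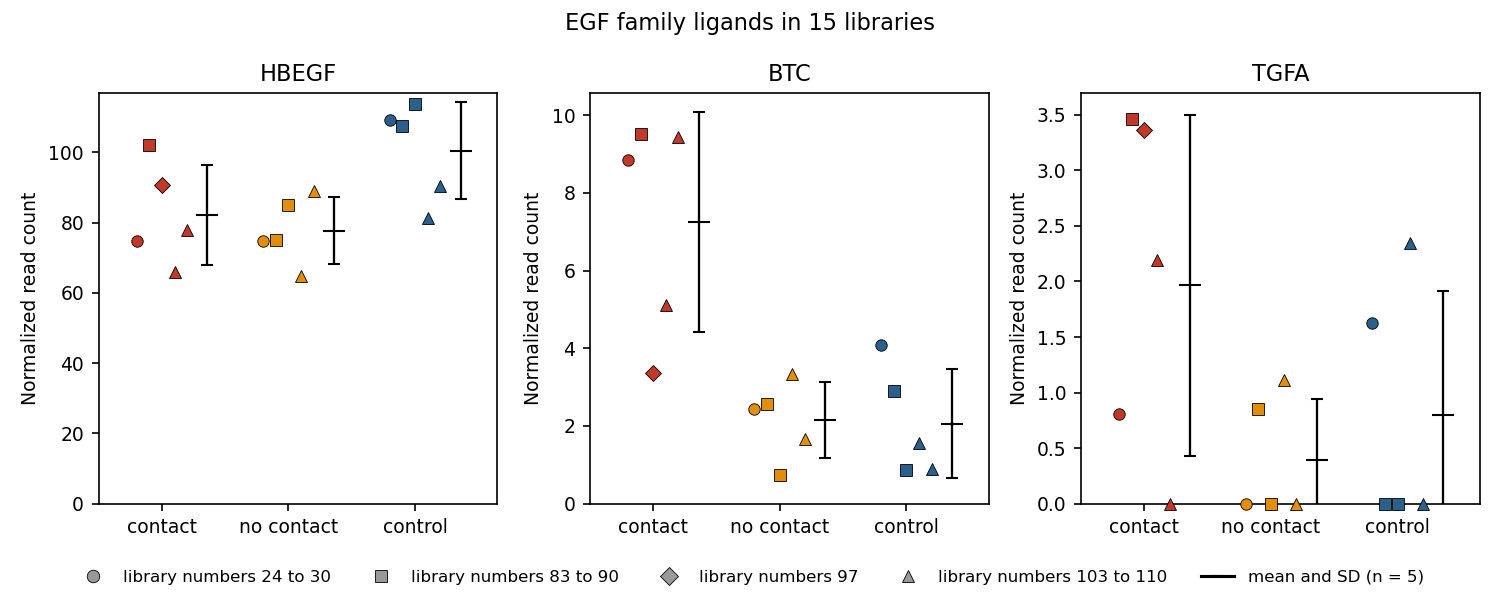
Normalized read counts (vertical axes, linear, from 0) of HBEGF, BTC and TGFA in the contact, no contact and control libraries; each point is a library, its shape gives the run of library numbers, and bars give the mean and SD of 5 libraries. Control libraries 24, 83 and 84 are the highest for HBEGF, and the contact values of BTC, 3.36 to 9.51, lie above the no contact values, 0.746 to 3.35.

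EGFR is the receptor for HBEGF, BTC and TGFA. Its normalized counts were 1030.3, 728, 961, 866 and 847 in contact, 903, 919, 435, 852 and 721 in no contact, and 804, 742, 747, 764 and 812 in control. Contact library 87 lay below all controls and the other 4 contact libraries above them, while no contact library 90 was the lowest of the 15. EGFR averaged 886 ± 115 in contact libraries, 766 ± 201 in no contact libraries and 774 ± 32.3 in control libraries (SD, n = 5 each). On the log2 scale EGFR differed by 0.19 (95% interval -0.14 to 0.52) for contact against control, with a limma adjusted p of 0.496. It was -0.06 (-0.39 to 0.27) for no contact against control, with a limma adjusted p of 0.947, and turned to 0.13 without no contact library 90. For contact against no contact it was 0.25 (-0.08 to 0.58), with a limma adjusted p of 0.400, and 0.06 without that library.

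ERBB2, the receptor without a known ligand, read 3265, 2788, 2756, 2825 and 2957 in contact, 3192, 3411, 2407, 3054 and 2845 in no contact, and 3340.2, 2919, 2799, 3198 and 3178 in control. The highest and the lowest of the 15 values were both no contact libraries, 89 and 90, and the groups overlapped. Its log2 fold change was -0.08 (95% interval -0.25 to 0.09) for contact against control, -0.06 (-0.23 to 0.11) for no contact against control and -0.02 (-0.20 to 0.15) for contact against no contact. The limma adjusted p-values were 0.586, 0.894 and 0.904 in that order. The sign for no contact against control turned, to 0.018, without no contact library 90. These intervals are the narrowest among the 4 members.

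ERBB3, which binds neuregulins and relays mainly through its partner, read 450.1, 354, 369.7, 369.7 and 401 in contact, 374, 341, 296, 422 and 435 in no contact, and 347, 310.0, 317, 374 and 438 in control. All groups overlapped, with contact library 28 the highest and no contact library 90 the lowest. ERBB3 had a log2 fold change of 0.13 (95% interval -0.10 to 0.36) for contact against control, 0.06 (-0.17 to 0.29) for no contact against control and 0.07 (-0.16 to 0.29) for contact against no contact. The limma adjusted p-values were 0.503, 0.920 and 0.778 in that order. Within runs, the contact minus control differences of log2 values were 0.37, 0.17 and -0.07 in runs 24 to 30, 83 to 90 and BEEC.103 to 110, so that the sign differed between runs.

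**Figure D2:**
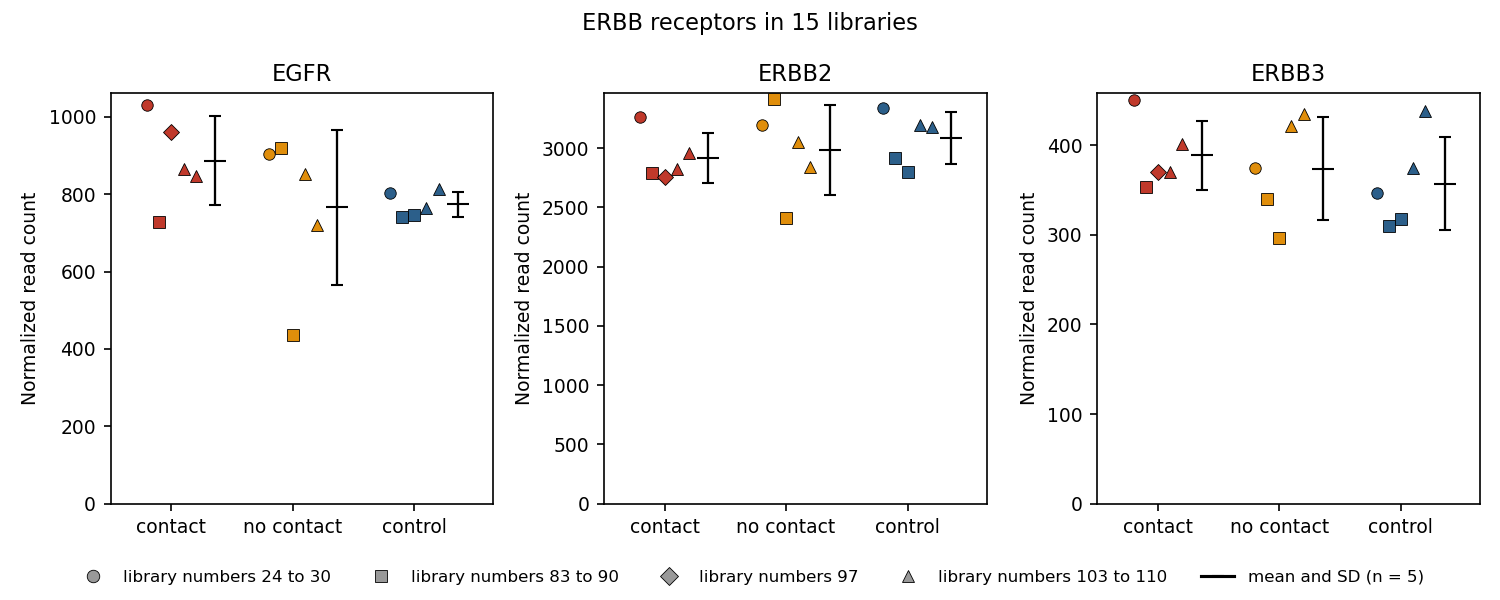
Normalized read counts (vertical axes, linear, from 0) of the receptors EGFR, ERBB2 and ERBB3 by library, with the contact, no contact and control groups from left to right; shapes give the run of library numbers, and bars give the mean and SD of 5 libraries. The groups overlap for every receptor, and no contact library 90, at 435, 2407 and 296, is the lowest of the 15 libraries in each panel.

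The ratio of EGFR to ERBB2 within a library does not depend on the library's scaling, although it is not a ratio of molecules because transcript length enters it. It was 0.316, 0.261, 0.349, 0.307 and 0.286 in contact, 0.283, 0.270, 0.181, 0.279 and 0.253 in no contact, and 0.241, 0.254, 0.267, 0.239 and 0.256 in control. The contact ratios lay above all controls but for library 87. The ratio was computed after the values of both genes had been seen and is given without a test.

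Among the other family genes, NRG1 (neuregulin 1), a ligand of ERBB3, passed the filter. It read 86.8, 100.3, 70.6, 101 and 73.1 in contact, 86.9, 80.2, 73.1, 116 and 88.9 in no contact, and 56.2, 63.0, 61.6, 95.5 and 99.4 in control. Control libraries 24, 83 and 84, the same that were the highest for HBEGF, were the lowest of the 15, and control libraries BEEC.103 and BEEC.104 lay among those with embryos. NRG1 differed on the log2 scale by 0.22 (95% interval -0.13 to 0.58) for contact against control and 0.27 (-0.09 to 0.62) for no contact against control, with limma adjusted p of 0.444 and 0.717. For contact against no contact it was -0.04 (-0.40 to 0.32), with a limma adjusted p of 0.920. Within the runs 24 to 30, 83 to 90 and BEEC.103 to 110, NRG1 differed by 0.62, 0.68 and -0.18 between contact and control on the log2 scale, and by 0.62, 0.29 and 0.06 between no contact and control. NRG2 had 3 reads in all, and EGF, NRG3, NRG4 and ERBB4 were not analysed here.

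**Figure D3:**
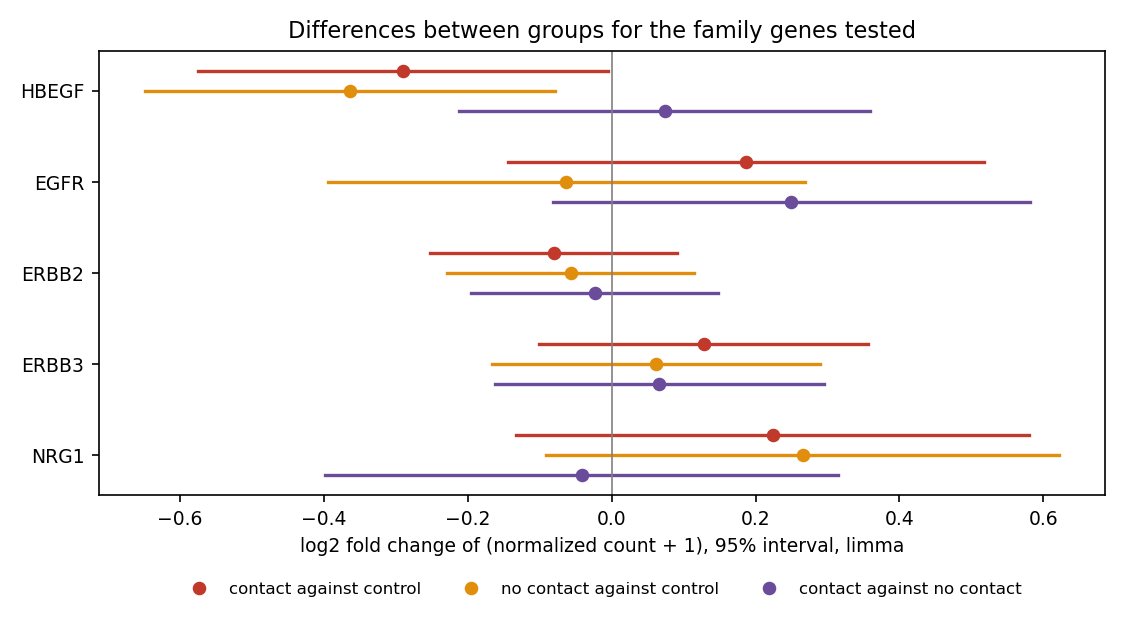
Log2 fold changes (horizontal axis) with 95% intervals from limma for the 4 members that passed the filter and for NRG1, in each of the 3 comparisons. Only the HBEGF intervals for contact against control, -0.58 to -0.0046, and no contact against control, -0.65 to -0.078, lie wholly on 1 side of 0, and neither passed the test after adjustment.

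Across the 15 libraries, which share groups and runs, the members' log2 values were correlated with one another to different degrees. These correlations are descriptions without a test. EGFR and ERBB2 had Pearson's r = 0.70 and Spearman's rho = 0.45, and r = 0.37 without no contact library 90. HBEGF and NRG1 ran opposite to each other, with r = -0.67, rho = -0.63 and r = -0.68 without that library.

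The genes most like each member were ranked by Pearson's r of log2 values over the 15 libraries among 12038 genes with a symbol. For HBEGF they were MTREX, an RNA helicase of the nuclear exosome, at r = 0.843, the kinase STK38L at 0.840 and the endoplasmic reticulum chaperone HSPA5 at 0.823. For EGFR the most like included the Argonaute protein AGO2 at 0.961 and the transcriptional coregulator TCF20 at 0.957, and r was 0.842 and 0.814 without no contact 90 and contact 28, the libraries farthest from the EGFR median. For ERBB2 they were the insulin receptor substrate IRS2 at 0.957, LTBP3, which binds latent TGF-beta, at 0.927 and KLHDC7A at 0.915. For ERBB3 they were the forkhead factor FOXO4 at 0.914, the retinol saturase RETSAT at 0.901 and WASHC4, a subunit of an endosomal actin-regulating complex, at 0.885. Spearman's rho of the pairs named here ran from 0.732 to 0.964. Without the 2 libraries farthest from the member's median, r ran from 0.750 to 0.831 for HBEGF, from 0.854 to 0.932 for ERBB2 and from 0.845 to 0.871 for ERBB3.

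Some of the genes listed for ligand shedding were lower in contact than in control. The list also holds genes that are not proteases, CD44 among them. Of its 16 genes 15 passed the filter, and 4 fell and 0 rose in contact against control. In that comparison 5.78% of all genes tested were called lower and 7.17% higher. There edgeR called 4 of the 15, against 12.9% of all genes, and DESeq2 called 5, against 14.4%. Their median log2 fold change was -0.08, against -0.011 over all genes. ADAM17, the main sheddase of HBEGF, TGFA, AREG and EREG, read 695, 527, 507, 602 and 670 in contact, 791, 697, 497, 628 and 611 in no contact, and 986, 782, 847, 781 and 758 in control. All contact values lay below all controls, and the no contact values overlapped with both.

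ADAM17 had a log2 fold change of -0.47 ± 0.112 (SE) for contact against control, with a limma adjusted p of 0.00737, and the call was kept in all 27 alternatives. For no contact against control it was -0.37, with a limma adjusted p of 0.157, and it was called with the number run as a block, at 0.0107, and without no contact 30, at 0.0369, the range over the alternatives being 0.0107 to 0.427. For contact against no contact it was -0.10, with a limma adjusted p of 0.671. Within the runs 24 to 30, 83 to 90 and BEEC.103 to 110, the contact minus control differences of ADAM17 on the log2 scale were -0.50, -0.63 and -0.28.

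The other shedding genes that fell in contact against control were the metalloproteases ADAM8 and ADAM12 and CD44, a hyaluronan receptor. ADAM8 read 187 to 217 in contact and 229 to 360.4 in control, with a log2 fold change of -0.43 and a limma adjusted p of 0.0130. ADAM12 read 746 to 948 in contact and 1051 to 1408 in control, with -0.48 and a limma adjusted p of 0.0217. For neither did the contact and control libraries overlap. The ADAM8 call was lost without contact 97 and 108, at 0.0509, and the ADAM12 call without these, with the number run as a block, or without contact 87, control 83 or control 84, at 0.0560 to 0.0674. CD44 read 3744 to 4042 in contact and 4022 to 5484 in control, with -0.26 and a limma adjusted p of 0.0497, and it was called in 12 of 27 alternatives. Leaving out any 1 contact library, no contact 30, 89 or 110, or control 24, 83 or 84 ended the CD44 call, at 0.0527 to 0.153. In no contact against control and in contact against no contact, limma called 0 of the 15 shedding genes, 1 had an unadjusted p below 0.05 in each, and edgeR and DESeq2 called 0. Of all genes tested, limma called 1.59% and 5.56% in these comparisons, and 8.39% and 19.7% had an unadjusted limma p below 0.05. There edgeR called 1.62% and 5.54% of all genes, and DESeq2 1.96% and 7.21%.

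Of 31 signal relay genes, the adaptors and kinases between receptor and nucleus, 30 passed the filter. Of these 1 fell in contact against control, where 5.78% of all genes tested were called lower. In that comparison edgeR called 1 and DESeq2 called 2 of the list, against 12.9% and 14.4% of all genes. The gene that limma called was MAPK3, the kinase ERK1, which read 1946 to 2335 in contact, 2344 to 2790.5 in no contact and 2397 to 2693 in control. The contact values lay below those of both other groups. MAPK3 had a log2 fold change of -0.24 against control, with a limma adjusted p of 0.0228, and -0.25 against no contact, with a limma adjusted p of 0.0363. In contact against no contact 1.82% of all genes tested were called lower by limma. There edgeR and DESeq2 each called 1 of the list, against 5.54% and 7.21% of all genes. The limma calls of MAPK3 were made in 22 and 18 of 27 alternatives. The call against control was lost without contact 87 or 97 or control 24 or 83, at 0.0602 to 0.0725. That against no contact was lost without contact 87, 97 or 107 or no contact 30, 89 or 90, at 0.0604 to 0.116. Leaving out contact 97 and 108 together ended both calls, at limma adjusted p of 0.0761 and 0.121. The call against no contact also ended with library weights, at 0.134, and with only the groups compared fitted, at 0.0911. Between no contact and control limma called 0 of the 30, 1 had an unadjusted p below 0.05, and edgeR and DESeq2 called 0. Of all genes tested, limma called 1.59% there, and 8.39% had an unadjusted limma p below 0.05. The shares called by edgeR and DESeq2 were 1.62% and 1.96%. The medians of the list were -0.02, -0.04 and 0.04 in contact against control, no contact against control and contact against no contact.

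The 29 genes listed as feedback inhibitors end receptor signalling or govern the turnover of the receptors. Of these 27 passed the filter and 1 rose in contact against control, where 7.17% of all genes tested were called higher. In that comparison edgeR called 2 of the list and DESeq2 called 3, against 12.9% and 14.4% of all genes. USP8, a deubiquitinase that acts on internalised EGFR, read 2233 to 2487 in contact and 1931 to 2075 in control, with no overlap. Whether USP8 curbs or prolongs receptor signalling in these cells was not tested. Its log2 fold change was 0.24, with a limma adjusted p of 0.0101, and it was called in 26 of 27 alternatives, all but leaving out contact 97 and 108 together, at 0.0549. In no contact against control and in contact against no contact limma called 0 of the 27, 2 and 4 had an unadjusted p below 0.05, and edgeR and DESeq2 called 0. Of all genes tested, limma called 1.59% and 5.56% there, and 8.39% and 19.7% had an unadjusted limma p below 0.05. The shares were 1.62% and 5.54% for edgeR, and 1.96% and 7.21% for DESeq2. The medians of this list were -0.05, -0.07 and 0.05 in the same order of comparisons.

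Of 32 early and delayed target genes of the pathway, many of which answer to other pathways too, 30 passed the filter, and 4 fell and 1 rose in contact against control, where 5.78% of all genes tested were called lower and 7.17% higher. Against 12.9% and 14.4% of all genes, edgeR called 5 and DESeq2 called 6 of the same 30. Their median was -0.17, against -0.011 over all genes. JUNB, a subunit of the AP-1 transcription factor, read 2727, 3616, 2574, 3451 and 3399 in contact, 4548, 4649.9, 5229.7, 3658 and 4249 in no contact, and 4717, 4073, 3835, 5037 and 4378 in control. Every contact value lay below every other value. The log2 fold change was -0.49 for contact against control and -0.51 for contact against no contact, with limma adjusted p of 0.00335 and 0.00528, and both calls were kept in all 27 alternatives. Within the runs 24 to 30, 83 to 90 and BEEC.103 to 110 the contact minus control differences of log2 values were -0.79, -0.13 and -0.46.

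IER5, an immediate early response gene, read 292 to 351 in contact and 397 to 483 in control, with a log2 fold change of -0.48 and a limma adjusted p of 0.00114 that held in all 27 alternatives. BCL2L1, which encodes the survival protein BCL-XL, read 628 to 785 in contact and 774 to 875 in control, with -0.23 and a limma adjusted p of 0.0279, called in 21 of 27. The BCL2L1 call was lost without contact 87, 97 or 107 or control 24, 83 or BEEC.104, at 0.0544 to 0.0893. MYC, a growth-promoting transcription factor, ran the other way, at 4036 to 4466 in contact and 3039.8 to 3974 in control. Its log2 fold change was 0.24, with a limma adjusted p of 0.0409, called in 17 of 27 alternatives. Leaving out any 1 contact library, or control 24, 83 or 84, ended the MYC call, at 0.0524 to 0.134. The MYC call also ended without a filter and without contact 97 and 108 together, at limma adjusted p of 0.0538 and 0.120. In contact against no contact JUNB was the only one of the 30 that limma called, while edgeR called 1 and DESeq2 called 2. Of all genes, limma, edgeR and DESeq2 called 5.56%, 5.54% and 7.21% there. In no contact against control limma called 0 of the 30, 5 had an unadjusted p below 0.05, edgeR called 0 and DESeq2 called 1. For all genes these shares were 1.59%, 8.39%, 1.62% and 1.96%. The medians of the targets were -0.09 in contact against no contact and -0.08 in no contact against control.

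**Figure D4:**
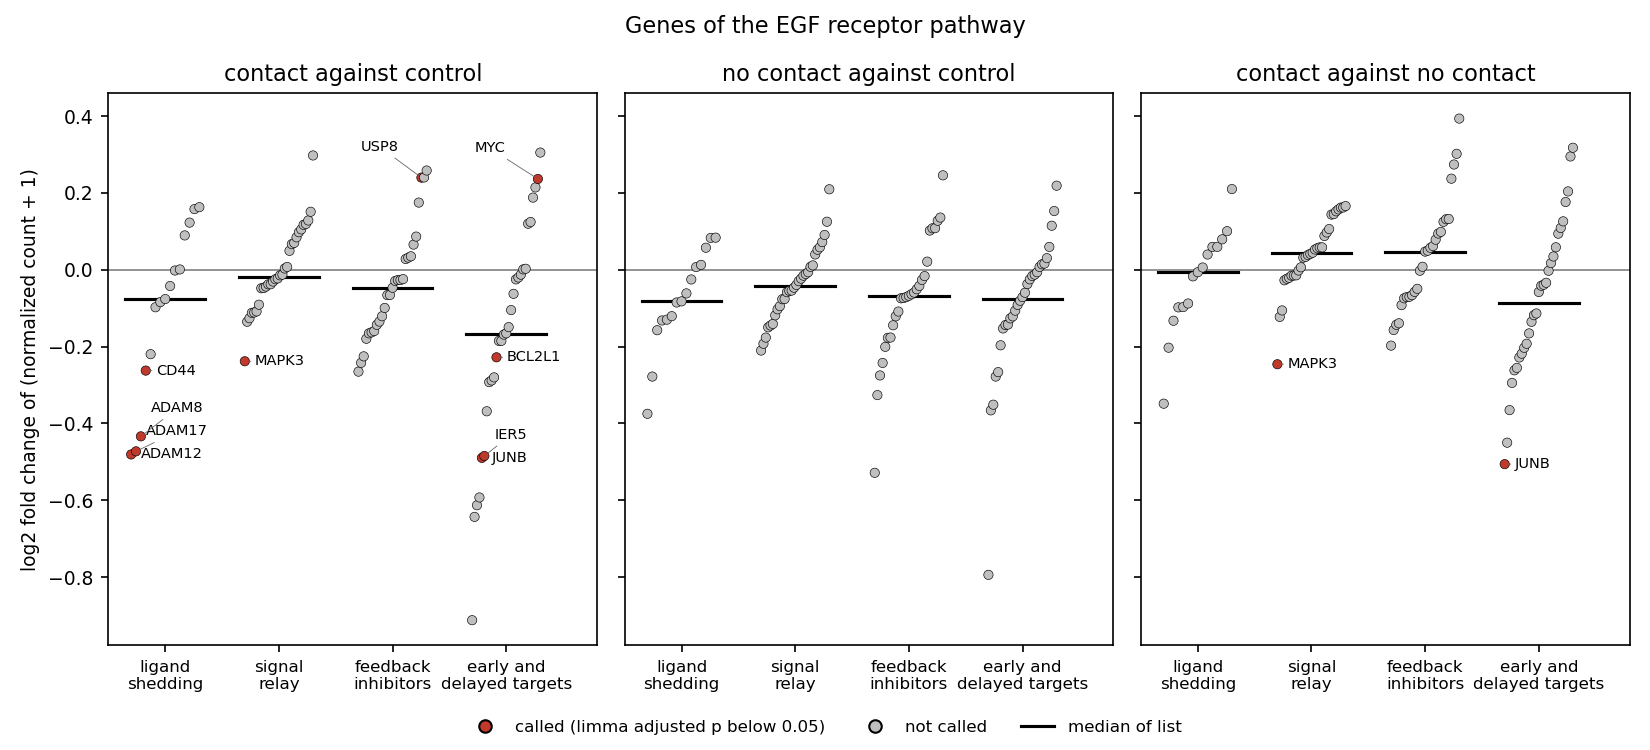
Log2 fold changes (vertical axis) of tested genes in the 4 pathway lists, 1 panel per comparison; red points were called by limma at an adjusted p below 0.05 and are named, grey points were not, and black lines are the medians of the whole lists. Most called genes are in contact against control, with ADAM12 at -0.48 and JUNB at -0.49 among the lowest called, and none is in no contact against control.

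**Figure D5:**
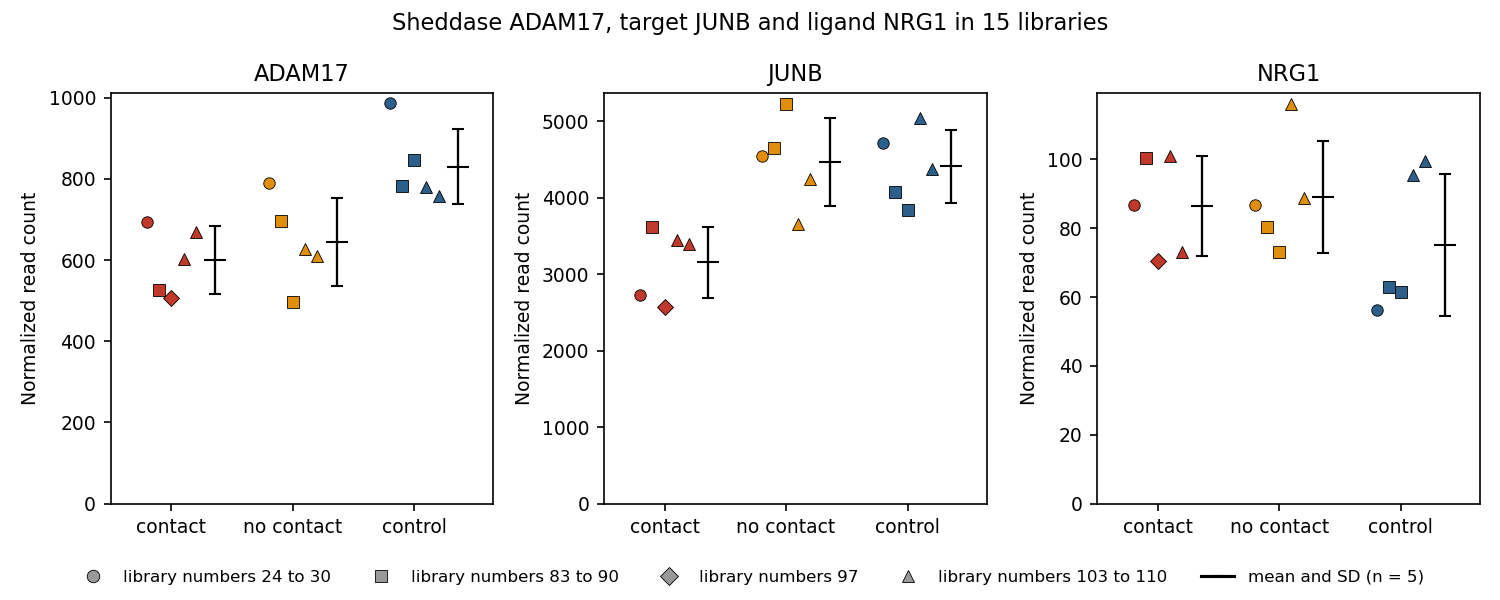
Normalized read counts (vertical axes, linear, from 0) of ADAM17, JUNB and NRG1 by library, in the contact, no contact and control groups; shapes give the run of library numbers, and bars give the mean and SD of 5 libraries. The JUNB values of contact, 2574 to 3616, lie below both other groups, and the ADAM17 values of contact, 507 to 695, lie below those of control, 758 to 986.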

How the data were processed

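Poly-A RNA of 15 libraries was sequenced with paired reads of 100 bases, per the labels' protocols. The submitters' processing notes name HISAT2 2.1.0, featureCounts 1.6.2 and DESeq2 1.18.1 without giving their roles. For genome build, annotation and strand setting, nothing was given in the sources used here, so reads of overlapping or antisense genes cannot be told apart.

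The authors deposited 1 signal per gene and library, read counts divided by a size factor. In every library 100% of the values were whole multiples of 1 read within 0.01. The same deposited table holds the authors' log2 fold changes, a Wald score, a p-value and an FDR per comparison.

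The main test was limma 3.58.1 in R 4.3.3 on log2(value + 1), using trended and robust empirical Bayes variances and a coefficient per group over all 15 libraries. It ran on 12559 genes with a value of at least 10 in at least 5 libraries. Adjusted p is Benjamini-Hochberg over all genes tested, with a threshold of 0.05. BTC and TGFA were tested with an exact two-sided permutation test of the difference in means (SciPy 1.17.1). Alternatives were edgeR 4.0.16 and DESeq2 1.42.0 on the recovered reads, other filters, pseudocounts, scalings and library weights, fits of only the groups compared, the number run as a block, and leaving out libraries. The limma test was checked on simulated data with known changes.

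The members and lists were chosen with earlier results of these data known. Named are all family genes, up to 4 called genes of each pathway list per comparison and direction by smallest p, and the 3 genes most like each tested member, some of which are not reported here. Of 19994 genes, 16378 had their name in the deposited table and 1358 from RefSeq (ARS-UCD2.0).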

Additional observations from a re-analysis of the deposited data

Results flagged for a closer look

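In a search of 60 groups of 5 libraries for a library far from the others, 2 were found. EPGN read 0.865 in contact library 87 and 0 in the other 4 contact libraries. NRG2 read 0.783 in control library BEEC.103 and 0 in the other 4 control libraries. Each value is a single read.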

How the results depend on the processing

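No paired analysis was possible because the groups share no replicate numbers. Libraries of the same number run deviated together (median correlation 0.219 over 23 pairs, against -0.0944 over 52 pairs of different runs), so alternative fits took the run as a replicate block. The main limma test and the exact permutation test left the run out and treated libraries as independent. No tested member was called under any of the 27 other settings, or under the block without no contact 90, chosen after seeing the data. Without a filter the count of members called was 1 for contact against control and 1 for contact against no contact, BTC both times. Of all genes in that limma fit, 9.21% and 3.58% were called in these comparisons.

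Counts over all genes moved more, and the cause was not tested. With the block and without no contact 90, contact against control gave 1385 higher and 1402 lower, no contact against control 54 lower, and contact against no contact 509 lower. With the block and all libraries, the lower counts were 52 for no contact against control and 344 for contact against no contact. Without contact 97 and 108, contact against control gave 420 lower, and contact against no contact 306 higher and 84 lower. No contact against control gave 33 lower with DESeq2 and 22 with library weights, and contact against no contact 111 lower with only these groups fitted. Leaving out 1 library gave 0 to 0 members called, 687 to 1102 higher and 473 to 980 lower for contact against control, the lowest without control 83. It gave 162 to 187 higher and 3 to 19 lower for no contact against control, and 325 to 561 higher and 115 to 349 lower for contact against no contact.

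Sign changes touched only differences that were not called. EGFR in no contact against control was -0.14 to 0.13 on leaving out 1 library, 0.030 with library weights and 0.12 with the block without no contact 90. ERBB2 was -0.11 to 0.018 there and 0.0084 with that block, and -0.099 to 0.027 in contact against no contact. In contact against no contact HBEGF was -0.0075 to 0.15, ERBB3 -0.014 to 0.12 and -0.029 with library weights, and NRG1 -0.11 to 0.057, 0.025 with edgeR and TMM scaling, 0.023 with edgeR and RLE scaling, 0.0095 with DESeq2 and 0.12 without contact 97 and 108. BTC in no contact against control was -0.059 to 0.30 without a filter, and its difference of means -0.21 to 0.59. Depth limits BTC, TGFA, AREG and EREG, and contact libraries 97 and 108 in all genes.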
